A study of Mus musculus with 8 samples.

Results

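The regulators described here are 10 genes of the nuclear receptor network that senses fatty acids and sterols: the receptors Pparg, Ppard, Ppara, Rxra, Rxrb, Nr1h2, Nr1h3 and Esrra, and the coactivators Ppargc1a and Ppargc1b. They were taken by gene symbol, without regard to their values, and all 10 were found among the 39527 genes of the deposited table. RNA was sequenced from group 2 innate lymphoid cells (ILC2s), tissue lymphocytes that release type 2 cytokines, sorted from epididymal visceral fat. The high-fat libraries, H1 to H4, came from wild-type C57BL/6 males at 14 weeks of age that had been on that diet for 8 weeks, since the age of 6 weeks. The normal-diet libraries, N1 to N4, came from wild-type C57BL/6 males of that same age on the normal diet over the same 8 weeks. The labels name no transgene or other agent and do not say whether a library is 1 animal or a pool, so the p-values cover library-to-library spread only, and that spread may be technical.

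PPARs are receptors for fatty acids and their derivatives, and LXRs for oxidised cholesterol. Both bind DNA as dimers with an RXR, most often at a pair of AGGTCA-like half-sites, and recruit coactivators when a ligand is bound. PGC-1 proteins are such coactivators and drive mitochondrial genes with the orphan receptor ERRα, which binds without an added ligand. In adipose tissue PPARγ is best known as the factor that makes and maintains fat cells, and ILC2s and fat-resident regulatory T cells are among the lymphocytes that use it.

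Promoter windows of the annotated starts were read from RefSeq (GRCm38.p6, mm10), which held 14 windows for 9 of the 10 genes. Those of Pparg are shown because it is the regulator whose RNA differed between the diets, and that of Nr1h2 because it is the regulator of nearest level that did not pass the test. Each runs 5′ to 3′ and lies before the start, exon bases are left out, and capitals mark the GC box (GGGCGG or its complement).
Pparg window 1, chr6:115360894-115360950, plus strand, start at 115361144: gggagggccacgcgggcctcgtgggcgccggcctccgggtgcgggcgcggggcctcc
Pparg window 2, chr6:115362099-115362291, plus strand, start at 115362349: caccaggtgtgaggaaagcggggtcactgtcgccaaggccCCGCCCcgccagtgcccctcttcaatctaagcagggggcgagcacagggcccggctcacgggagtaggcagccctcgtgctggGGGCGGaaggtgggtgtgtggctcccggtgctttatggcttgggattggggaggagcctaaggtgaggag
Pparg window 3, chr6:115421816-115422065, plus strand, start at 115422066: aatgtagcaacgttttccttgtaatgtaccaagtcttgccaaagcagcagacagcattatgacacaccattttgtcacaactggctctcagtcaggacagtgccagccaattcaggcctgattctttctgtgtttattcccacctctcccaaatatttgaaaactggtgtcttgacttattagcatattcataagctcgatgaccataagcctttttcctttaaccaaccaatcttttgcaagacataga
Nr1h2, chr7:44553966-44554215, minus strand, start at 44553965: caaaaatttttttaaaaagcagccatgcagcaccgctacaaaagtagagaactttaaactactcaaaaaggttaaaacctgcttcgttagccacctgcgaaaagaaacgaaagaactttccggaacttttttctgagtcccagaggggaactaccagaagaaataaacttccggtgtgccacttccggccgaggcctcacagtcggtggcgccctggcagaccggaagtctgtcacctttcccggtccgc
The Pparg windows differ in base composition. Over the 250 bases before the start, exon bases included, GC content is 82.4%, 63.6% and 40.8% in windows 1, 2 and 3, against 48.4% in the Nr1h2 window and a median of 52.4% over 32851 RefSeq windows. Both strands of the whole windows (250 bases before to 50 after the start) were searched for 7 motifs. The half-site AGGTCA, which 16.3% of all windows hold, stands 28 bases before the start in Pparg window 1 and 9 bases before it in window 2, both in exon bases not printed. GGGCGG, which 35.7% of all windows hold, is found in Pparg windows 1 and 2. TATAAA, in 13.6% of all windows, is found in Pparg window 2. Pparg window 3 and the Nr1h2 window hold none of the 7 motifs. The exact direct repeats of this half-site known as DR1, 1 base apart (in 0.0396% of all windows), and DR4, 4 bases apart (0.0152%), contain the single half-site and were found in no window of the 9 genes. The motif AGATAA, which is bound by Gata3 and its relatives and held by 11.2% of all windows, and the E-box CACGTG, held by 7.15%, are absent from the Pparg and Nr1h2 windows. The RNA values are per gene, so they do not say which Pparg start was used.

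Levels are given in FPKM, a measure of fragments that corrects for gene length and for library size. A fold change is the difference of mean log2(FPKM + 1), high-fat minus normal diet, which understates the change of low genes. It was tested with limma over the 11483 genes that reached 1 FPKM in 4 or more libraries, with a Benjamini-Hochberg adjusted p under 0.05 as the call. Of the 10 regulators 7 entered this test. Pparg fell, and the other 6 did not pass. Over all tested genes 2.86% were called, 1.88% lower and 0.975% higher. Nr1h3, Ppara and Ppargc1a were under the expression filter and were compared by exact permutation tests.

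Pparg encodes PPARγ, the fatty acid receptor of fat cells (ENSMUSG00000000440, chromosome 6, 115360951 to 115490399, plus strand, mm10). It stood at 52.1, 51.5, 51.6 and 46.5 FPKM in H1 to H4, against 72.8, 98.0, 102 and 87.1 FPKM in N1 to N4. Every high-fat library lay below every normal-diet library, as was the case, for lower values, in 6.76% of all tested genes. The means were 50.4 ± 2.65 FPKM on the high-fat diet and 90.0 ± 13.1 FPKM on the normal diet (SD, n = 4 each), a ratio of 0.56. The log2 fold change was -0.81 (SE, the standard error, 0.15; 95% interval -1.13 to -0.50, limma adjusted p = 0.00916). Recovered reads on the gene numbered 1074, 825, 1145 and 1200 in H1 to H4 and 1403, 1975, 1822 and 1909 in N1 to N4, so counting error was 2.3% to 3.5% of a value, against a coefficient of variation of 5.3% on the high-fat and 14.6% on the normal diet. In bulk libraries, fewer cells with the transcript and less transcript per cell cannot be told apart. The antisense gene Gm44079 lies within the span of Pparg, shares 0 exon bases with it and held 275 reads in all libraries together; the library kit does not mark strand.

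Ppard encodes PPARδ, the broadly expressed PPAR linked to fatty acid oxidation (chromosome 17, 28232700 to 28301474, plus strand). It measured 1.75, 1.86, 1.78 and 1.73 FPKM in H1 to H4 and 2.18, 1.79, 3.40 and 3.43 FPKM in N1 to N4. The high-fat libraries were close to one another, and N2 lay among them while the other normal-diet libraries were higher. The log2 fold change of -0.38 (SE 0.21, 95% interval -0.82 to 0.06) did not pass (limma adjusted p = 0.346). Ppara encodes PPARα, the receptor that drives fatty acid oxidation in liver (chromosome 15, 85734983 to 85802819). It was at 0.0967, 0.923, 0.363 and 0.228 FPKM in H1 to H4 and at 0.814, 0.0362, 0.402 and 0.238 FPKM in N1 to N4, from 1 to 23 reads per library. Both diets spanned nearly the same low range, with H2 and N1 highest in each, and the difference in mean log2(FPKM + 1) was 0.03 (exact permutation test, two-sided p = 0.886).

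**Figure D1:**
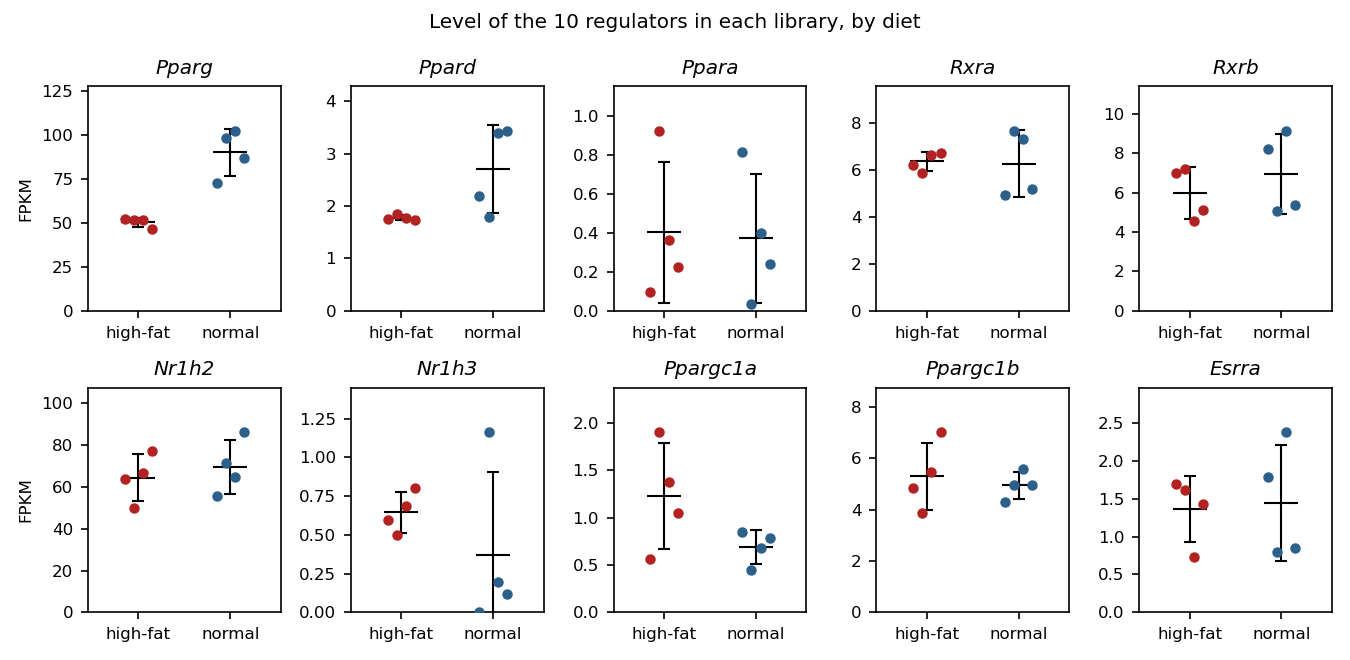
FPKM of each of the 10 regulators (vertical axes, each from 0 with its own range) in the 4 high-fat and 4 normal-diet libraries; each point is a library, horizontal lines are means and bars are SD. The high-fat points of Pparg lie at 46.5 to 52.1 FPKM, below the normal-diet points at 72.8 to 102 FPKM, while the points of the other regulators overlap between the diets.

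Among the dimer partners, Rxra encodes RXRα, a shared partner of PPARs and LXRs (chromosome 2, 27676440 to 27762957). It stood at 6.20, 5.88, 6.65 and 6.74 FPKM in H1 to H4 and at 4.93, 7.67, 7.33 and 5.19 FPKM in N1 to N4. The high-fat libraries fell inside the range of the normal-diet libraries, and the log2 fold change was 0.04 (SE 0.17, 95% interval -0.32 to 0.40, limma adjusted p = 0.942). Rxrb encodes RXRβ, the other partner expressed here at a like level (chromosome 17, 34031812 to 34038399). It stood at 6.97, 7.20, 4.58 and 5.14 FPKM in H1 to H4 and at 8.21, 5.08, 9.12 and 5.36 FPKM in N1 to N4. Both diets were split into a higher and a lower pair of libraries, and the log2 fold change was -0.17 (SE 0.20, 95% interval -0.61 to 0.26, limma adjusted p = 0.722). Rxrg, the remaining RXR and not one of the 10 genes, averaged 2.62 ± 0.55 FPKM on the high-fat and 1.60 ± 0.61 FPKM on the normal diet (SD, n = 4 each; log2 fold change 0.49, limma adjusted p = 0.247).

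Of the LXRs, Nr1h2, which encodes the widely expressed LXRβ, carried nearly all of the RNA (chromosome 7, 44549616 to 44553951, minus strand). Its share of the LXR sum in FPKM was 99.0% to 99.1% in the high-fat libraries and 98.4% to 100% in the normal-diet libraries. Nr1h2 measured 63.7, 50.1, 66.8 and 77.3 FPKM in H1 to H4 and 55.7, 71.4, 64.8 and 86.1 FPKM in N1 to N4. The diets overlapped over most of their range, and the log2 fold change was -0.11 (SE 0.17, 95% interval -0.47 to 0.26, limma adjusted p = 0.81). Its pseudogene Nr1h2-ps held at most 2 reads in a library. Nr1h3 encodes LXRα, the LXR of macrophages, liver and fat (chromosome 2, 91184061 to 91202834, minus strand). It was at 0.595, 0.496, 0.685 and 0.804 FPKM in H1 to H4 and at 0, 1.16, 0.195 and 0.118 FPKM in N1 to N4. The high-fat libraries lay between N2 and the other 3 normal-diet libraries, on 8 to 20 reads each against 0 to 19 reads. The 0 reads in N1 allow up to 0.162 FPKM (3 reads, counting error only). The difference in mean log2(FPKM + 1) was 0.33 (exact permutation test, two-sided p = 0.229), and 34 exon bases of Nr1h3 are shared with the transcript Gm13783.

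The PGC-1 coactivators were both expressed, Ppargc1b above Ppargc1a in all 8 libraries. Ppargc1b encodes PGC-1β, a coactivator of mitochondrial and lipogenic genes (chromosome 18, 61298136 to 61400431, minus strand). It stood at 4.86, 3.86, 5.47 and 7.01 FPKM in H1 to H4 and at 4.29, 4.96, 5.57 and 4.97 FPKM in N1 to N4. The normal-diet libraries lay inside the wider high-fat range, and the log2 fold change was 0.06 (SE 0.18, 95% interval -0.32 to 0.44, limma adjusted p = 0.897). Ppargc1a encodes PGC-1α, the cold- and fasting-induced coactivator of mitochondrial biogenesis (chromosome 5, 51454250 to 51567726, minus strand). It was at 0.566, 1.90, 1.38 and 1.05 FPKM in H1 to H4 and at 0.851, 0.449, 0.680 and 0.785 FPKM in N1 to N4, on 15 to 61 reads. H2, H3 and H4 were above all normal-diet libraries and H1 lay among them. The difference in mean log2(FPKM + 1) was 0.37 (exact permutation test, two-sided p = 0.143). H2, the highest for Ppargc1a and for Ppara, had the fewest reads of the 8 libraries. It also had the most genes at 1 FPKM or more, 13663 against 10763 (N2) to 11905 (H3) in the other libraries. The part of depth, or of this wider detection, in these values was not tested. Ppargc1b made up 80.8 ± 10.1% of the PGC-1 sum on the high-fat and 87.7 ± 3.56% on the normal diet (SD, n = 4 each).

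Esrra encodes ERRα, the orphan receptor through which PGC-1 proteins reach respiratory chain genes (chromosome 19, 6910977 to 6921813, minus strand). It was at 1.70, 1.61, 0.729 and 1.43 FPKM in H1 to H4 and at 1.78, 0.791, 2.37 and 0.850 FPKM in N1 to N4. Both diets held libraries below 1 FPKM and libraries above 1.5 FPKM, and the log2 fold change was -0.02 (SE 0.26, 95% interval -0.58 to 0.54, limma adjusted p = 0.982). Esrra shares 73 exon bases with Trmt112 on the other strand, which averaged 52.6 FPKM on the high-fat and 46.6 FPKM on the normal diet, so its low values are uncertain.

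**Figure D2:**
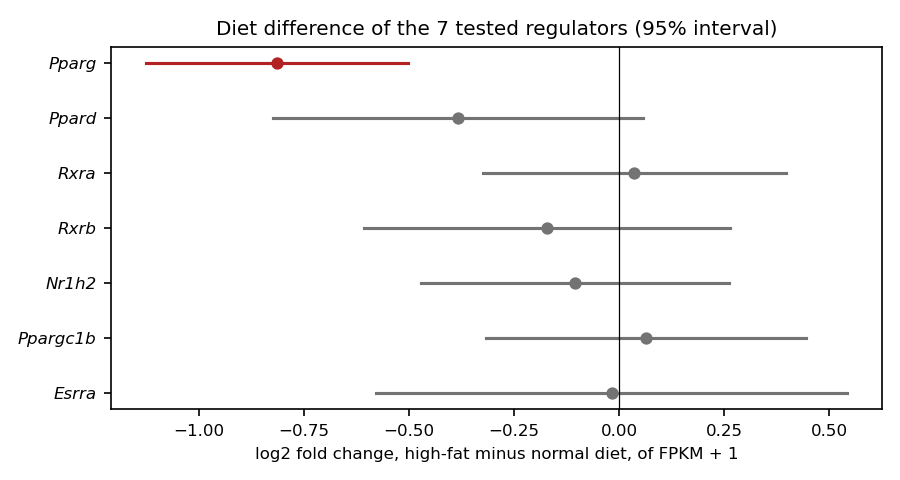
Log2 fold change of FPKM + 1, high-fat minus normal diet (horizontal axis), of the 7 regulators that entered the test; points are estimates, lines are 95% intervals and red marks an adjusted p under 0.05. The interval of Pparg runs from -1.13 to -0.50 and the other 6 intervals hold 0.

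Of the 7 tested regulators 5 had a log2 fold change below 0, with a median of -0.11. Over all tested genes 52.1% were below 0, with a median of -0.02. Limma voom on recovered reads, an alternative chosen after seeing the data, could test all 10 regulators and called Pparg and none of the other 9. Over all 15756 genes that voom tested, it called 1341, 985 higher and 356 lower. The later counts by voom are to be read against these.

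The regulators spanned a wide range of levels per length. By mean FPKM over the 8 libraries the order was Pparg, Nr1h2, Rxrb, Rxra, Ppargc1b, Ppard, Esrra, Ppargc1a, Nr1h3 and Ppara. Pparg and Nr1h2 ranked 1365 and 1419 of 11483 tested genes, and Rxrb, next in order, ranked 6797. Nr1h2 lay above Rxrb by 10.4-fold in mean FPKM and Ppargc1b above Ppard by 2.29-fold, each in all 8 libraries and with no overlap of the library ranges. Ppard was above Esrra in all 8 libraries, although their ranges overlapped. The neighbours Rxrb and Rxra, Rxra and Ppargc1b, Esrra and Ppargc1a, Ppargc1a and Nr1h3, and Nr1h3 and Ppara overlapped in range on both diets. The order of the leading pair differed by diet: Pparg was above Nr1h2 in 1 of 4 high-fat libraries and in 4 of 4 normal-diet libraries. Among 49 nuclear receptors listed, Nr1h2 was 6th and Pparg 7th by mean FPKM on the high-fat diet, and Pparg was 6th and Nr1h2 7th on the normal diet.

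The balance between receptors was computed within each library as a log2 ratio of FPKM + 1 values, or as a share of FPKM. Pparg made up 95.9 ± 0.71% of the PPAR sum on the high-fat diet and 96.7 ± 1.03% on the normal diet (SD, n = 4 each; exact permutation test, two-sided p = 0.343). The log2 ratio of Pparg to the sum of Rxra and Rxrb was 1.91, 1.90, 2.11 and 1.88 in H1 to H4 and 2.38, 2.85, 2.57 and 2.93 in N1 to N4. The diets did not overlap in this ratio, and the difference was -0.73 (exact permutation test, two-sided p = 0.0286, the smallest that 4 against 4 libraries allow; 0.0571 after adjustment over the 4 ratios). The log2 ratio of Pparg to Ppard was 4.27, 4.20, 4.24 and 4.12 in H1 to H4 and 4.53, 5.15, 4.55 and 4.31 in N1 to N4. Here too the diets did not overlap, with a difference of -0.43 (exact permutation test, two-sided p = 0.0286, adjusted 0.0571). This last difference depends on the pseudocount: with 0.1 in place of 1 it was -0.30 (exact permutation test, p = 0.229). The log2 ratio of Rxra to Rxrb was 0.10 ± 0.35 on the high-fat and -0.11 ± 0.48 on the normal diet (SD, n = 4 each; exact permutation test, two-sided p = 0.571). Ratios with Pparg on top are not independent of its own fall.

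**Figure D3:**
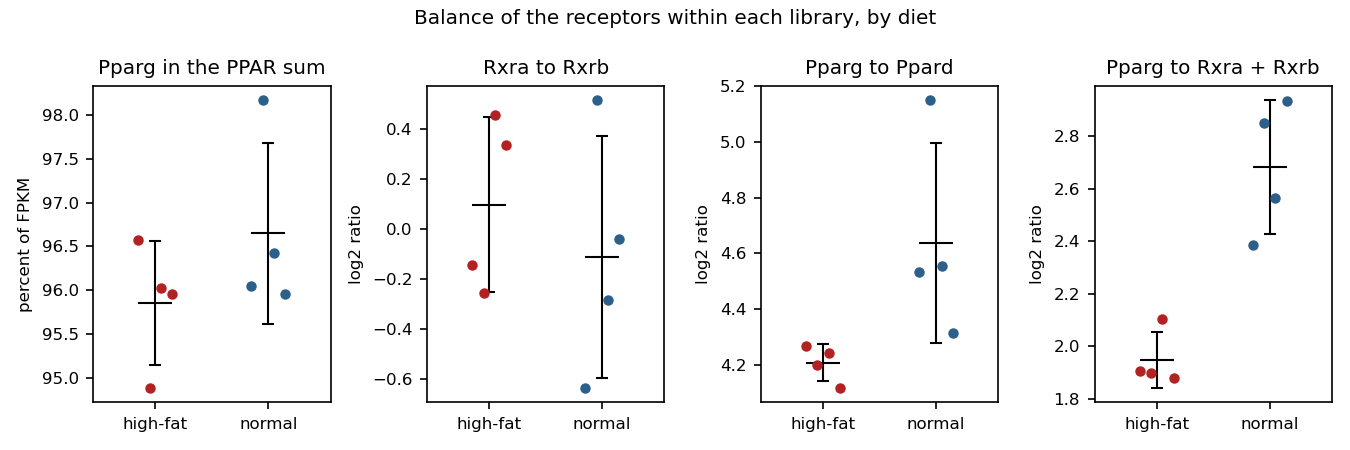
The 4 balances in each library: Pparg as percent of the PPAR sum in FPKM, and log2 ratios of FPKM + 1 of Rxra to Rxrb, of Pparg to Ppard and of Pparg to Rxra and Rxrb together (vertical axes do not start at 0). Points are libraries, lines are means and bars are SD, with the high-fat diet left of the normal diet. The ratio of Pparg to the RXRs lies at 1.88 to 2.11 on the high-fat and at 2.38 to 2.93 on the normal diet.

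Of 49 nuclear receptors listed, 25 entered the test, 19 of them outside the regulators. Of these 19, limma called 1: Vdr, the vitamin D receptor and another RXR partner, fell. It stood at 2.04, 3.03, 2.01 and 1.41 FPKM in H1 to H4, against 4.13, 6.10, 5.03 and 4.81 FPKM in N1 to N4 (log2 fold change -0.96, SE 0.20, limma adjusted p = 0.0164). The high-fat libraries were all below the normal-diet libraries, though the call ended without H3, H4 or N2 and without the filter on low values (limma adjusted p up to 0.0644). Voom called Vdr and Rora lower and Rara, a retinoic acid receptor, higher. Rora, a lineage factor of ILC2s, stood at 1544 to 1753 FPKM on the high-fat and 1955 to 2573 FPKM on the normal diet, without overlap (limma adjusted p = 0.0749). The median log2 fold change of the 25 receptors was -0.11. The receptors above Pparg in mean FPKM over the libraries were Nr4a1, Rora, Nr4a3, Nr3c1 and Nr4a2.

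**Figure D4:**
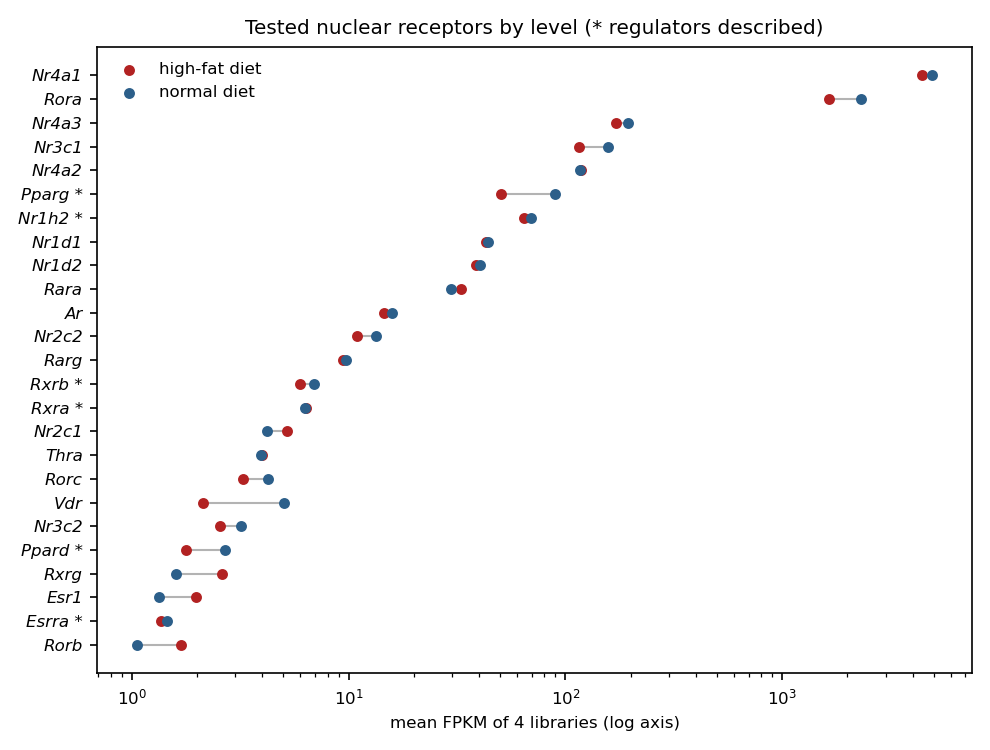
Mean FPKM of 4 high-fat (red) and 4 normal-diet (blue) libraries for the 25 nuclear receptors tested, on a log axis and ordered by mean over all libraries; stars mark the regulators. Pparg stood at 50.4 FPKM on the high-fat and 90.0 FPKM on the normal diet, and Vdr at 2.12 and 5.02 FPKM in that order of diets.

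Genes known as PPAR targets in fat, liver or muscle moved in both directions. Of 23 listed, 20 were tested, 2 rose (Fabp4 and Ucp2), 1 fell (Hilpda) and 17 did not pass. Over all tested genes 2.86% were called. The median log2 fold change was 0.20, and 14 of the 20 were above 0, while 52.1% of all tested genes were below 0. Between the diets 7 of the 20 did not overlap, 1 of them lower on the high-fat diet, where 11.1% of all tested genes did not. Fabp4, a fatty acid carrier of fat cells, capillary endothelium and macrophages, stood at 104, 9.68, 62.5 and 68.9 FPKM in H1 to H4, against 1.81, 0.788, 1.63 and 1.58 FPKM in N1 to N4. H2 was far below the other high-fat libraries and still above all normal-diet ones. The log2 fold change was 4.29 (SE 0.70, limma adjusted p = 0.027), and leaving out any 1 library other than H2 ended the call, as did voom on recovered reads (adjusted p up to 0.175). The sum of 8 endothelial markers was 19.7 to 44.2 FPKM on the high-fat and 14.8 to 20.4 FPKM on the normal diet, with overlap. Of the 8, 1 was under 1 FPKM in every library. The largest part was Pecam1 (18.6 ± 6.13 and 13.5 ± 2.01 FPKM in that order of diets, SD, n = 4 each), which did not pass (limma adjusted p = 0.369). Of the 3 endothelial markers tested Esam, a junction molecule, rose (4.97 ± 2.52 FPKM on the high-fat and 0.763 ± 0.41 FPKM on the normal diet, SD, n = 4 each; limma adjusted p = 0.0111). Pecam1 itself overlapped between the diets. Of the 5 endothelial markers under the filter, Cdh5, Kdr, Tek and Egfl7 were higher on the high-fat diet without overlap. Tek, for example, was at 0.932 ± 0.42 and 0.111 ± 0.07 FPKM in that order of diets (SD, n = 4 each). Cldn5 was higher in mean, with overlap. Limma voom on recovered reads, which could test 7 of the 8, called 5 higher (Pecam1, Kdr, Tek, Egfl7 and Esam). The macrophage list, 4 of its 11 genes under 1 FPKM in every library, summed to 12.3 to 13.3 FPKM on the high-fat and 8.42 to 9.96 FPKM on the normal diet. Limma called 0 of its 3 tested genes (log2 fold change 0.07 for Cd68, -0.01 for Cd14 and 0.84 for Lyz2). Under the filter, C1qb, C1qc and Mertk were higher on the high-fat diet without overlap. Adgre1 was lower without overlap, at 0.378 ± 0.32 and 1.43 ± 0.35 FPKM in that order of diets (SD, n = 4 each). It was the 1 of 5 genes that voom called. The part of these cells in the rise of Fabp4 was not tested. Ucp2, an inner-membrane carrier of mitochondria, measured 516, 290, 493 and 446 FPKM in H1 to H4, against 176, 214, 169 and 280 FPKM in N1 to N4. All high-fat libraries were higher (log2 fold change 1.05, SE 0.20, limma adjusted p = 0.0126), and the call ended without H3, without H4 and without the filter on low values (adjusted p up to 0.0577). Hilpda, a lipid droplet protein that restrains lipolysis, measured 4684, 4882, 4396 and 4655 FPKM in H1 to H4, against 6457, 7013, 6194 and 8497 FPKM in N1 to N4. All high-fat libraries were lower (log2 fold change -0.59, SE 0.14, limma adjusted p = 0.0352), but 10 of 18 alternatives ended the call, among them leaving out H1, H3, H4, N1, N2 or N4 and quantile normalization (adjusted p up to 0.243). Without H2 and N2, the libraries that stood farthest apart, 6 PPAR targets rose in place of 2: Fabp4, Ucp2, Cd36, Angptl4, Cpt1a and Acadl. Over all 11483 tested genes, 242 were then called higher, against 112 in the main test. Voom called 5 PPAR targets higher (Ucp2, Angptl4, Cpt1a, Acadl and Acaa2) and Hilpda lower.

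Genes known as LXR targets handle cholesterol and fatty acid synthesis. Of 14 listed, 11 were tested, 1 fell and 10 did not pass. Over all tested genes 1.88% were called lower. The median log2 fold change was -0.33, and 10 of the 11 were below 0, as were 52.1% of all tested genes. Between the diets 5 of the 11 did not overlap, all 5 lower on the high-fat diet, as was the case in 6.76% of all tested genes. Mylip, the ubiquitin ligase that degrades the LDL receptor, stood at 9.19, 6.50, 6.82 and 8.28 FPKM in H1 to H4, against 12.7, 12.4, 14.7 and 13.2 FPKM in N1 to N4. All high-fat libraries were lower (log2 fold change -0.72, SE 0.15, limma adjusted p = 0.0192), and the call ended without H3, H4 or N3, without the filter on low values and with the replicate block (adjusted p up to 0.0795).

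Of 22 genes listed for the PGC-1 and ERR network, 18 were tested, limma called 1 lower and 17 did not pass, with a median log2 fold change of -0.13 and 14 below 0. Over all tested genes 1.88% were called lower and 52.1% were below 0. Voom called 2 lower, Vegfa and Gabpb1, a subunit of the GABP factor. Vegfa, a vessel growth factor that PGC-1α induces in muscle, was at 14.6, 18.3, 12.0 and 11.0 FPKM in H1 to H4, against 38.3, 26.2, 42.1 and 26.1 FPKM in N1 to N4. All high-fat libraries were lower (log2 fold change -1.18, SE 0.20, limma adjusted p = 0.00625). The sum of the mast cell markers, cells that also make Vegfa, ran from 1409 to 6387 FPKM on the high-fat and from 3088 to 6206 FPKM on the normal diet, with H2 lowest, and their part in the fall of Vegfa was not tested. The most expressed of them, the proteases Tpsb2 (2919 ± 1571 and 4007 ± 1172 FPKM in that order of diets) and Cpa3 (654 ± 391 and 518 ± 182 FPKM, SD, n = 4 each), did not pass.

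Of 20 coregulators of nuclear receptors listed, 19 were tested and limma called 0. At an unadjusted p under 0.05 there were 2, Nrip1 and Med1, and limma voom on recovered reads called 1, Lpin1. The median log2 fold change was -0.05. Gps2, a subunit of the NCoR corepressor complex, averaged 104 ± 12.4 FPKM on the high-fat and 109 ± 6.49 FPKM on the normal diet (SD, n = 4 each; log2 fold change -0.07, limma adjusted p = 0.846). Nrip1, a ligand-dependent corepressor of oxidative genes in fat, averaged 51.9 ± 13.5 FPKM on the high-fat and 95.6 ± 28.6 FPKM on the normal diet (SD, n = 4 each; log2 fold change -0.85, limma adjusted p = 0.0542). Nrip1 was called lower in 5 of 18 alternatives: without H2, without N4, without H2 and N2, at a mean of 5 FPKM or more and with the repeating factor divided out.

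Genes that supply ligands came next. Of 23 listed, 14 were under the filter and 9 were tested, of which limma called 1 lower and 8 did not pass, with a median log2 fold change of -0.13. Voom, which could test 15, called 3: Alox5 lower, and Pnpla2, the lipase that frees fatty acids, and Aldh1a3, a retinoic acid synthase, higher. Alox5, the lipoxygenase that starts leukotriene synthesis, stood at 237, 235, 199 and 282 FPKM in H1 to H4, against 424, 623, 444 and 585 FPKM in N1 to N4. All high-fat libraries were lower (log2 fold change -1.11, SE 0.17, limma adjusted p = 0.0033).

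**Figure D5:**
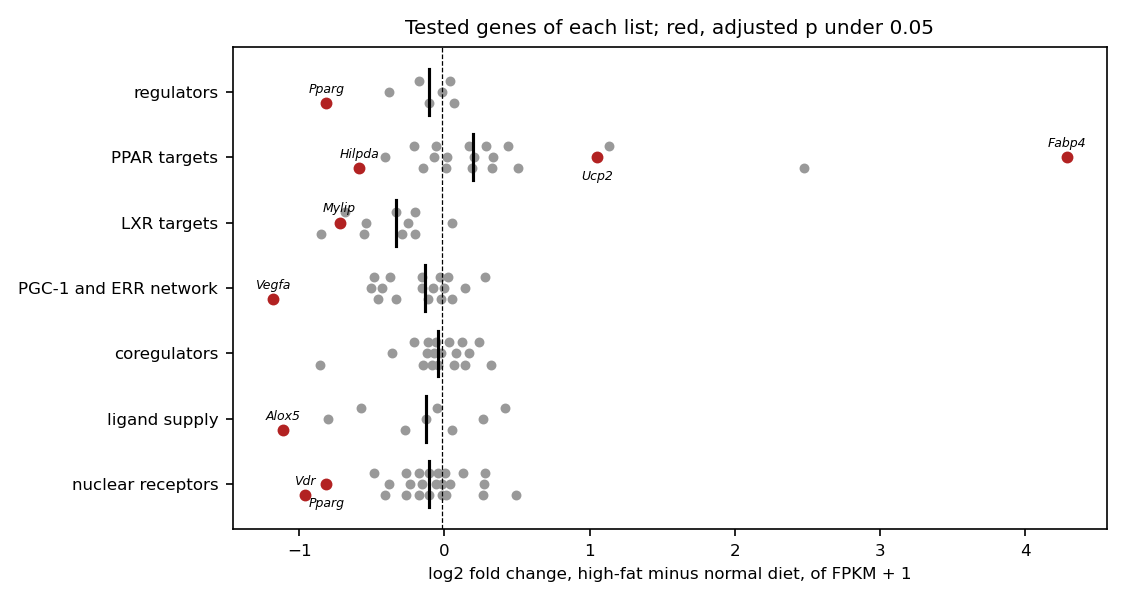
Log2 fold change of FPKM + 1, high-fat minus normal diet (horizontal axis), of the tested genes of each list; red points have an adjusted p under 0.05, black bars are list medians and the dashed line is the median of all tested genes. Pparg is the leftmost regulator at -0.81, the median of the PPAR targets is 0.20 and that of the LXR targets is -0.33.

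The 5 named genes whose pattern over the 8 libraries was most like that of Pparg were found by Pearson r of log2(FPKM + 1) over the tested genes, without predicted genes. They were Gas2l3, a cytoskeletal linker (r = 0.986), Tollip, an adaptor of interleukin-1 and Toll-like receptor signalling (0.969), Hpn, a membrane serine protease (0.968), Dnajb1, a chaperone of the heat shock response (0.963), and Xlr4b, of an X-linked multigene family whose reads may be split among copies (0.962). These values hold the difference between the diets, and all points share their library. With the mean of each diet taken away, r over the 8 libraries was 0.894 for Gas2l3, 0.656 for Tollip, 0.693 for Hpn, 0.570 for Dnajb1 and 0.744 for Xlr4b. Tollip measured 171 ± 12.4 FPKM on the high-fat and 392 ± 59.0 FPKM on the normal diet (SD, n = 4 each), and it fell (log2 fold change -1.19, SE 0.15, limma adjusted p = 0.00155). Dnajb1 fell as well (-0.63, adjusted p = 0.0185), with the call lost without H3 or H4, at quantile normalization and with the replicate block (adjusted p up to 0.0765). The level of Gas2l3 was near the filter of 1 FPKM, at 0.872 ± 0.13 FPKM on the high-fat and 1.65 ± 0.23 FPKM on the normal diet (SD, n = 4 each). Gas2l3 (-0.50, adjusted p = 0.22), Hpn (-0.59, adjusted p = 0.0506) and Xlr4b (-0.47, adjusted p = 0.0799) did not pass in the main test. Voom called all 3 lower, and counting that, Hpn was called in 5 of 18 alternatives, Xlr4b in 3 of 18 and Gas2l3 in 1 of 17. Of 11482 genes compared, 91 had an r above 0.9.

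Libraries held 9005363 (H2) to 15752815 (H4) recovered reads. H2 and N2 stood at the ends of the first principal component, and without both the log2 fold change of Pparg was -0.78 (limma adjusted p = 0.015). The 13 ILC2 markers were all tested, and 3 fell, namely Il5, the eosinophil growth factor (189 ± 48.1 FPKM on the high-fat and 780 ± 92.7 FPKM on the normal diet), Il2ra, a receptor chain for interleukin-2 (205 ± 22.7 and 338 ± 33.3 FPKM), and Gata3, the lineage factor (648 ± 66.6 and 982 ± 139 FPKM, SD, n = 4 each). Over all tested genes 1.88% were called lower. The call of Gata3 ended under 12 of 18 alternatives, among them leaving out any 1 library except N3, and that of Il2ra without H3 or N1. All 13 markers together summed to 7208 to 8143 FPKM on the high-fat and 8870 to 10820 FPKM on the normal diet, without overlap. The most expressed, Id2 (2197 ± 297 and 2842 ± 611 FPKM in that order of diets) and Rora (1640 ± 91.7 and 2306 ± 289 FPKM, SD, n = 4 each), did not pass (limma adjusted p = 0.282 and 0.0749). In all, the 10 markers other than Il5, Il2ra and Gata3 did not pass in limma. Of these Il7r, the interleukin-7 receptor chain, lay at 203 to 272 FPKM on the high-fat and 150 to 200 FPKM on the normal diet, in the opposite direction. Voom called 7 of the 13, 5 lower and 2 higher (Il7r and Areg). The part of ILC2 content in the fall of Pparg was not tested. Markers of other cells were present too. T cell markers summed to 1008 to 1921 FPKM on the high-fat and 1068 to 1329 FPKM on the normal diet, led by the receptor constant segments Trbc1 and Trbc2. Limma called 0 of the 9 tested, though 8 had a log2 fold change above 0, with a median of 0.73. Over all tested genes 52.1% were below 0. Cd4 was at 6.68, 5.63, 15.5 and 18.5 FPKM in H1 to H4 and at 2.88, 2.69, 3.58 and 15.9 FPKM in N1 to N4. Voom called 3 of 10 T cell markers higher (Cd3e, Trbc1 and Trbc2). Regulatory T cell markers summed to 1704 to 2217 FPKM and 2400 to 2657 FPKM in that order of diets, most of it Ccr8, while Foxp3, which defines those cells, averaged 9.96 ± 4.86 FPKM on the high-fat and 4.51 ± 4.72 FPKM on the normal diet (SD, n = 4 each). Among the normal-diet libraries Foxp3 was highest in N4, at 11.5 FPKM, against 1.45 to 3.30 FPKM in N1 to N3. Of the 4 regulatory T cell markers limma called 0 and voom called 1, Ctla4, higher. The part of T cells, regulatory ones among them, in the fall of Pparg was not tested. The adipocyte list, 4 of its 7 genes under 1 FPKM in every library, summed to 4.57 to 8.30 FPKM and 3.31 to 5.92 FPKM in that order of diets. Its 2 tested genes were Lipe (3.30 ± 0.74 and 2.54 ± 0.39 FPKM) and Cidec (1.49 ± 1.29 and 1.34 ± 0.33 FPKM, SD, n = 4 each). They led the sum, and neither passed (limma adjusted p = 0.498 and 0.979). Adipoq, the defining fat cell transcript, was at 0.165, 0, 0.176 and 0 FPKM in H1 to H4 and at 0.563, 0, 0 and 0 FPKM in N1 to N4. Plin1, the coat protein of fat cell lipid droplets, lay between 0.0744 and 0.881 FPKM on the high-fat diet and between 0 and 0.0444 FPKM on the normal diet, without overlap. The part of fat cell RNA in these results was not tested.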

How the data were processed

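RNA of sorted ILC2s was measured in 8 libraries, 4 per diet, from SMART-Seq HT cDNA, per the labels' protocols. HISAT2, Cufflinks and mm10 are named in the submitters' processing notes, while versions and annotation were not given in the sources used here. By the file headers the authors deposited FPKM. In 14605 of 39527 genes they are below 0, as if divided by a length of -1, and these were left out; all 10 regulators are above 0. Within a library the value of 1 read also carries a factor of 0.863 to 1.18 that repeats every 10 rows, kept in the main values. Whole reads were recovered for all 24107 genes above 0 (relative tolerance 1e-06), and they set the counting precision.

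limma 3.58.1 (R 4.3.3; trend and robust options; two-sided) modelled log2(FPKM + 1) on diet alone and was tested on simulated data. Ratios and the 3 regulators under the filter were compared by exact permutation over 70 splits (scipy 1.17.1). Genes named were the 10 regulators; for each other list up to 3 called genes by size, or the 2 most expressed where none was called; and the 5 genes most like Pparg. Genes named after their values were seen are Rxrg, Med1, Foxp3, Adipoq, Trmt112, Il7r, Areg, Plin1, Id2, Lyz2, C1qb, C1qc, Mertk, Cdh5, Cldn5 and Cd4. So are genes called by voom or without H2 and N2 alone, and the receptors above Pparg in level. The members and lists were chosen with earlier results of these data known. Coordinates are from GENCODE M21 (mm10). Alternatives were other pseudocounts, filters, scalings and moderation, the factor divided out, a replicate block, each library left out, H2 and N2 left out, and limma voom on recovered reads.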

Additional observations from a re-analysis of the deposited data

Results flagged for a closer look

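Of 84 groups of 4 libraries checked for 1 that lies far from its group, 3 did, where chance gives about 1 in 20. Pparg in H4 stood at 46.5 FPKM, below the other high-fat libraries at 51.5 to 52.1 FPKM. Nr1h3 in N2 stood at 1.16 FPKM, above the other normal-diet libraries at 0 to 0.195 FPKM. The log2 ratio of Pparg to the sum of Rxra and Rxrb was 2.11 in H3, above the other high-fat libraries at 1.88 to 1.91. Without H4 or without H3, Pparg was still called lower on the high-fat diet.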

How the results depend on the processing

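Pparg fell under all 18 alternatives (log2 fold change -0.91 to -0.64, limma adjusted p up to 0.0424), and in each it was the 1 regulator called. The count of all genes changed by diet moved more: 328 in the main test, 130 without the filter on low values, 571 with the repeating factor divided out, 1341 of 15756 with voom on recovered reads (985 higher and 356 lower) and 129 to 536 with each library left out. Without H2 and N2 it was 458, 242 higher and 216 lower. At quantile normalization 226 genes were higher and 204 lower, against 112 and 216 in the main test. Voom moved the median of all genes to 0.14, so directions under it, of called and uncalled genes alike, are to be read against that shift. Rara, which voom called higher, had a log2 fold change of 0.13 in the main test (limma adjusted p = 0.756). Of the 6 uncalled regulators Ppard (-0.52 to -0.29) and Rxrb (-0.37 to -0.01) kept their sign in each alternative that gave a value, and the other 4 did not. Nr1h2 was at 0.044 with quantile normalization, 0.12 with voom, 0.027 without H2 and N2, and -0.20 to 0.008 with each library left out. Rxra ran from -0.055 to 0.13 with each library left out, Ppargc1b from -0.06 to 0.18 and Esrra from -0.15 to 0.15. Ppargc1b was at -0.001 with quantile normalization, Esrra at 0.11 with voom, and Gps2 at 0.064 with quantile normalization and 0.12 with voom. The cause of these moves was not tested. The difference in the log2 ratio of Pparg to Ppard was -0.30 with a pseudocount of 0.1 and -0.54 to -0.26 with each library left out, and that of Pparg to the RXR sum -0.83 to -0.65; with 3 against 4 libraries the exact permutation test cannot go below p = 0.0571.

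Libraries share a number across the diets, and no pairing is given with the numbers. Same-numbered libraries had correlations of their deviations of -0.255 to 0.078, and differently numbered ones of -0.201 to 0.222. With 4 libraries per diet these values cannot decide whether the numbers mark pairs. With the replicate block 191 genes were called, Pparg among them, and the differences in the log2 ratios of Pparg to Ppard (-0.43) and to the RXR sum (-0.73) had an exact permutation p = 0.125, the smallest 4 pairs allow. The count test listed for recovered reads was not run because the deposited values are not counts, and voom, chosen after seeing the data, took its place. Low reads limit Ppara, Nr1h3 and Ppargc1a, and the spread of 4 libraries limits the rest.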
